A study of Mus musculus with 16 samples.

Results

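The 10 integrin subunit genes described here are those that epithelial cells are best known to use, 5 alpha subunits (Itga2, Itga3, Itga5, Itga6 and Itgav) and 5 beta subunits (Itgb1, Itgb3, Itgb4, Itgb5 and Itgb6). They were taken by gene symbol, and all 10 were found in both deposited tables, among 55414 Ensembl genes of the untreated experiment and 56980 of the experiment with IFNγ. RNA was measured by RNA-seq in KPC1199 cells, a murine pancreatic ductal adenocarcinoma (PDAC) line grown from a tumor of the KPC mouse, in which Cre expressed from the Pdx promoter acts in the pancreas and a mutant Trp53 allele is present. All 6 groups came from this line, and all were stably transduced with a lentiviral CRISPR-Cas9 vector and selected with puromycin. The control cells carried a non-targeting guide (sgCtrL) and the others a guide against Sin3B (Sin3Bsg1), a scaffold protein of histone deacetylase complexes. In the untreated experiment there were 2 libraries of each genotype. In the IFNγ experiment there were 3 libraries of each genotype without IFNγ and 3 with IFNγ at 10 ng mL−1 for 24 h. Nothing in the sources used here says whether the libraries came from separate cultures or whether each line was a clone or a pool, so the p-values measure the spread between these libraries, which may be technical, and one guide stands for the loss of Sin3B.

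Integrins are receptors in the plasma membrane made of one alpha and one beta subunit, and the pair decides which ligand is bound. The alpha-6 subunit pairs with beta-1 or with beta-4, and alpha-6 beta-4 anchors epithelial cells to laminin through hemidesmosomes, while alpha-3 beta-1 is a second laminin receptor. The alpha-2 beta-1 pair binds collagen and alpha-5 beta-1 binds fibronectin. The alpha-v subunit pairs with beta-3, beta-5 or beta-6 to bind vitronectin, osteopontin and other proteins with an RGD motif, and alpha-v beta-6 is known for activating latent TGF-beta in epithelia. RNA levels of the subunits do not measure the heterodimers at the cell surface.

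The 16 libraries held 18128055 to 32311721 counts each. Sin3b, the targeted gene, was lower in Sin3Bsg1 in each comparison of the genotypes, by 1.22 to 1.28 on the log2 scale. The 7 ductal epithelial markers were above the floor of 3 counts in every group, with a summed level of 3182 to 6401 CPM (each count scaled to a common library total). CD45 (Ptprc), Cd3e and Adgre1 reached at most 3 counts in a library, and the 8 leukocyte markers summed to 5.98 to 11.8 CPM, from Cd68 and Itgb2. The 4 endothelial markers summed to at most 0.918 CPM and the 3 platelet markers to at most 3.36 CPM. One library, sgCtrL with IFNγ, replicate 1, stood apart from its group. Its mean chi-square per gene was 22.02 and 18.2 against replicates 2 and 3, which differed from each other by 4.03, and the other pairs of replicates lay between 2.40 and 9.22. Results with that group are therefore also given without it where the call changed.

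The sequences below are shown because the first is the site that the guide of the Sin3Bsg1 cells matches, and the others are the start-site regions of Itgav and Itgb5, the members that were lower in Sin3Bsg1 in each of the 3 comparisons of the genotypes. The guide matched chr8:73449982-73450001 on the plus strand of GRCm39, in coding exon 1 of Sin3b, and its PAM is in capitals.
Sin3Bsg1: tggctcccgctggggtcgttCGG
The promoter windows, from 250 bases before to 50 bases after the annotated start, are from RefSeq (GRCm38.p6), and the GC box letters (GGGCGG on either strand) are in capitals.
Itgav, chr2:83724147-83724446, plus strand: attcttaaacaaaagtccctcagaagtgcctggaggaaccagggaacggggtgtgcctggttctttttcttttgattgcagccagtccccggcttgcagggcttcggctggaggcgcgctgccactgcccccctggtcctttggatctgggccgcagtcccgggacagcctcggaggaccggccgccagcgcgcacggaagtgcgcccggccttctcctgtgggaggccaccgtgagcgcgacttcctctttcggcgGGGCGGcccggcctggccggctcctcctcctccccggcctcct
Itgb5, chr16:33829415-33829714, plus strand: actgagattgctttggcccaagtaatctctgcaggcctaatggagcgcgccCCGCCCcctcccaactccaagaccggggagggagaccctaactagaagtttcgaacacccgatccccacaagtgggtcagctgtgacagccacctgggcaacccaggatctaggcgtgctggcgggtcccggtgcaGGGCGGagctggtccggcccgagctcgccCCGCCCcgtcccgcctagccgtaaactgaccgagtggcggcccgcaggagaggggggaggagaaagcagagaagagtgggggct
The Itgav window held 1 GC box, from 7 to 12 bases after the start, and the Itgb5 window held 3. RefSeq windows were matched for 7 of the 10 members, 9 windows in all, and not for Itga6, Itgb3 or Itgb4. The GC box was in 7 of these 9 windows and in 35.7% of 32851 promoters. The letters TTCNNNGAA, the GAS element known from promoters that respond to IFNγ, were in 0 of the 9 windows and in 8.3% of all promoters. The interferon-stimulated response element, searched as GAAA, 2 bases of any kind and GAAA, was in 1 window of Itga3 (3.44% of all), TGANTCA, the AP-1 element, in the other window of Itga3 (7.81% of all), and the E-box CACGTG in 0 of the 9 (7.15% of all). Both strands were searched. These counts describe letters in short windows and say nothing of binding.

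With the deposited gene lengths, Itga3, Itga6, Itgb1 and Itgb5 were the 4 highest members per length in every group and Itgb6 was the lowest. In untreated sgCtrL cells the order in TPM (counts per length and library, from the deposited gene lengths) was Itga3 at 423 ± 6.36 (SD, n = 2), Itga6 at 325 ± 2.66, Itgb1 at 263 ± 1.96, Itgb5 at 180.4 ± 3.72, Itgav at 68.1 ± 0.0694, Itgb4 at 54.5 ± 0.117, Itgb3 at 21.9 ± 1.04, Itga5 at 17.9 ± 0.210, Itga2 at 6.29 ± 0.653 and Itgb6 at 0.137 ± 0.00925. No neighbours in this order overlapped between libraries. In untreated Sin3Bsg1 cells Itga6 (407 ± 6.23 TPM) and Itga3 (407 ± 0.733 TPM) overlapped at the top. In sgCtrL cells of the IFNγ experiment without IFNγ, Itgb1 (301 ± 10.5 TPM, n = 3) and Itga3 (300.1 ± 7.45 TPM) overlapped, as did Itga5 (16.9 ± 1.21 TPM) and Itgb4 (16.2 ± 0.835 TPM). The order depends on the gene length used. The deposited length of Itga6 was 3393 bases, and its merged exons in GENCODE spanned 11382 bases, a ratio of 3.36, where the other members had ratios of 1.004 to 2.31. In Sin3Bsg1 cells without IFNγ, Itga6 ranked above Itgb5 with the deposited lengths (99.2 against 89.8 CPM per kilobase) and below it with merged exons (29.6 against 38.9 CPM per kilobase). With merged exons Itga3 and Itgb1 were the highest and Itgb6 the lowest in all 6 groups, but Itgb4 (36.97 CPM per kilobase) took the fourth place from Itgb5 (32.01) in untreated Sin3Bsg1 cells. In sgCtrL cells with IFNγ, Itgav (19.97 CPM per kilobase) lay beside Itga6 (19.95). Comparisons of one gene between groups do not depend on its length.

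**Figure D1:**
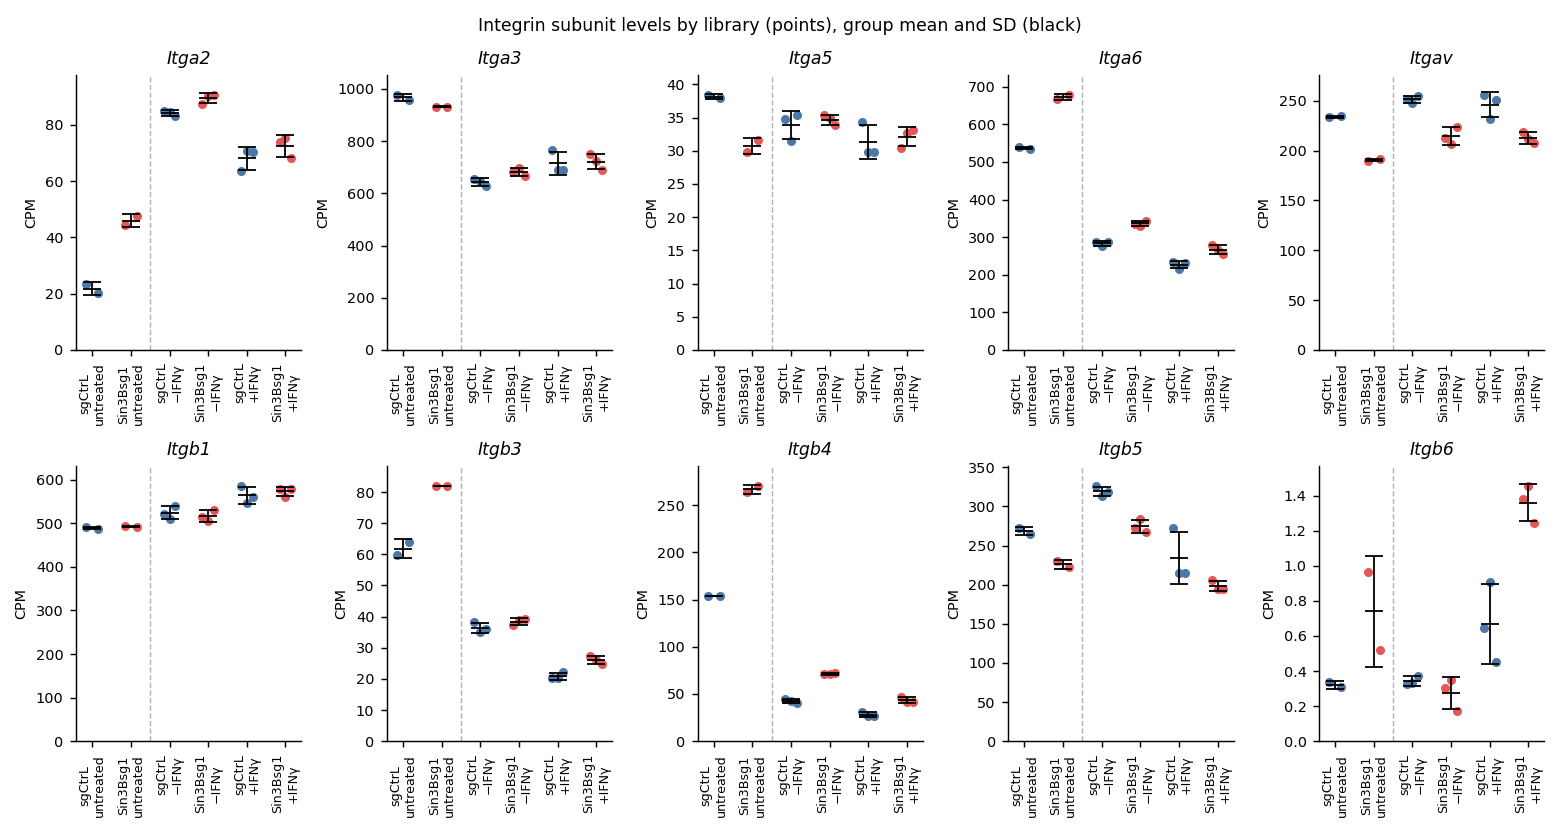
Level of each of the 10 integrin subunit genes in CPM (vertical axes, each from 0) in the 6 groups, left of the dashed line the untreated experiment and right of it the IFNγ experiment. Points are libraries (sgCtrL blue, Sin3Bsg1 red) and black marks the mean ± SD. Itgb4 and Itga6 lie higher, and Itgav lower, in each Sin3Bsg1 group than in its sgCtrL group.

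The laminin receptor subunits Itga6 and Itgb4 were higher in Sin3Bsg1 in all 3 comparisons of the genotypes. Itgb4, the hemidesmosomal beta subunit, stood at 153.4 and 153.4 CPM in the untreated sgCtrL libraries and at 264 and 270.0 CPM in the Sin3Bsg1 libraries. Without IFNγ it stood at 44.5, 43.1 and 40.4 CPM in sgCtrL against 70.9, 70.7 and 72.4 CPM in Sin3Bsg1, and with IFNγ at 31.2, 26.5 and 26.9 CPM against 46.7, 42.0 and 41.1 CPM. No Sin3Bsg1 library overlapped its control group. In RNA from whole cultures, fewer cells with a transcript and less of it per cell cannot be told apart. The log2 fold changes of Itgb4 were 0.80 ± 0.027 (SE; adjusted p = 2e-12 by edgeR's quasi-likelihood test, two-sided, as for every adjusted p of a gene here) in the untreated experiment, 0.74 ± 0.066 (adjusted p = 1.19e-06) without IFNγ and 0.62 ± 0.069 (adjusted p = 1.30e-05) with IFNγ, which are 1.74-fold, 1.67-fold and 1.54-fold. Itga6, its partner, stood at 539 and 534 CPM in untreated sgCtrL and at 667 and 678 CPM in Sin3Bsg1. In the IFNγ experiment it stood at 286, 276 and 287 CPM against 335, 331 and 344 CPM without IFNγ, and at 234, 215 and 231 CPM against 278.5, 266 and 255 CPM with IFNγ. The Itga6 groups were again apart, by a smaller fold than those of Itgb4, with log2 fold changes of 0.33 ± 0.019 (adjusted p = 1.85e-09), 0.25 ± 0.047 (adjusted p = 0.00144) and 0.23 ± 0.047 (adjusted p = 0.00290). Itga3, the alpha subunit of the other laminin receptor, changed little. It was lower in untreated Sin3Bsg1 cells by 0.056 ± 0.017 on the log2 scale (adjusted p = 0.0202, and 0.175 without sgCtrL replicate 1), and its log2 fold changes of 0.083 and 0.014 without and with IFNγ did not pass the test. Exons of Itgb4 overlap those of Galk1 on the opposite strand, and the strand setting of the counting is not given in the sources used here. Galk1, a galactokinase gene, was present at 88.3 to 131.5 CPM and its log2 fold changes had the opposite sign in the same 3 comparisons. They were -0.49 ± 0.034 (adjusted p = 1.78e-08), -0.18 ± 0.067 (adjusted p = 0.0836, which did not pass) and -0.24 ± 0.067 (adjusted p = 0.0211). The part of Galk1 reads in the counts of Itgb4 was not tested.

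The alpha-v subunit and its partner beta-5 were lower in Sin3Bsg1. Itgav stood at 233 and 234 CPM in untreated sgCtrL against 190.0 and 191 CPM in Sin3Bsg1, at 252, 248 and 255 CPM against 213, 207 and 224 CPM without IFNγ, and at 256, 232 and 251 CPM against 219, 212 and 207 CPM with IFNγ. Each Sin3Bsg1 library lay below each control library of its comparison. Its log2 fold changes were -0.29 ± 0.025 (adjusted p = 1.90e-07), -0.23 ± 0.048 (adjusted p = 0.00332) and -0.21 ± 0.048 (adjusted p = 0.00627). Itgb5 stood at 272 and 265 CPM against 230 and 222 CPM in the untreated experiment, at 326, 313 and 318 CPM against 273, 284 and 267 CPM without IFNγ, and at 272, 215 and 215 CPM against 206, 195 and 195 CPM with IFNγ. These groups did not overlap either, and in the last comparison 272 CPM belongs to the library that stood apart. The log2 fold changes of Itgb5 were -0.25 ± 0.027 (adjusted p = 2.03e-06), -0.22 ± 0.072 (adjusted p = 0.0489) and -0.24 ± 0.072 (adjusted p = 0.0333). The call without IFNγ was lost on leaving out any of 9 single libraries, and that with IFNγ on leaving out any of 3. Without the library that stood apart, the difference of Itgb5 with IFNγ was -0.11 (adjusted p = 0.0892).

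Itgb3, the beta subunit best known from platelets, osteoclasts and the vitronectin receptor, was higher in untreated Sin3Bsg1 cells and higher with IFNγ. It stood at 59.6 and 63.9 CPM in untreated sgCtrL against 81.9 and 81.9 CPM in Sin3Bsg1, with a log2 fold change of 0.41 ± 0.043 (adjusted p = 1.71e-06). With IFNγ it stood at 20.2, 20.2 and 22.1 CPM against 27.4, 26.2 and 24.9 CPM, with a log2 fold change of 0.33 ± 0.063 (adjusted p = 0.00180). Without IFNγ the libraries of sgCtrL, at 38.2, 35.2 and 36.0 CPM, overlapped those of Sin3Bsg1, at 37.2, 38.8 and 39.2 CPM, and the log2 fold change of 0.074 ± 0.059 did not pass the test (adjusted p = 0.451). Itgb6, the epithelial partner of alpha-v, had only 4 to 36 counts in a library, which limits what can be said of it. Its log2 fold changes between the genotypes were 1.20 ± 0.51 (adjusted p = 0.0898), -0.31 ± 0.45 (adjusted p = 0.704) and 1.01 ± 0.33 (adjusted p = 0.0523, and 0.0399 without sgCtrL with IFNγ, replicate 2).

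The collagen receptor subunit Itga2 had a genotype effect that differed clearly between the experiments. In untreated cells it stood at 23.4 and 20.2 CPM in sgCtrL and at 44.2 and 47.5 CPM in Sin3Bsg1, a log2 fold change of 1.07 ± 0.071 (adjusted p = 7.92e-09), which is 2.10-fold. Without IFNγ in the other experiment it stood at 85.0, 84.5 and 83.0 CPM against 87.5, 90.2 and 90.6 CPM, where the libraries did not overlap but the log2 fold change of 0.088 (95% interval -0.023 to 0.20) did not pass the test (adjusted p = 0.287). With IFNγ it was 0.090 ± 0.052 (adjusted p = 0.283). The control level of Itga2 was thus itself higher in the second experiment, and the experiment and its level cannot be told apart. Mocs2, whose exons overlap Itga2 on the opposite strand, stood at 18.1 to 29.1 CPM and had a log2 fold change of 0.22 ± 0.077 (adjusted p = 0.0440) in untreated cells. Itga5, the fibronectin receptor subunit, was lower in untreated Sin3Bsg1 cells, at 29.8 and 31.6 CPM against 38.4 and 37.9 CPM in sgCtrL, with a log2 fold change of -0.31 ± 0.059 (adjusted p = 6.49e-04). Its log2 fold changes of 0.037 and 0.038 in the IFNγ experiment did not pass the test. Itgb1, the common partner of the alpha subunits 2, 3, 5 and 6, did not pass the test in any comparison of the genotypes, with log2 fold changes of 0.0092 (95% interval -0.033 to 0.051), -0.021 (-0.11 to 0.068) and 0.024 (-0.065 to 0.11).

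Counted together, 8 of the 10 members passed the test in the untreated experiment, 4 higher and 4 lower, where 31.2% of the 14589 genes tested did, 15.1% higher and 16% lower. Without IFNγ 4 members passed, 2 higher and 2 lower, where 17.2% of 14913 genes did, 7.89% higher and 9.32% lower. With IFNγ 5 members passed, 3 higher and 2 lower, where 16.5% of genes did, 8.62% higher and 7.89% lower. The members whose groups did not overlap numbered 10, 6 and 6 in these comparisons, beside 63.3%, 39.2% and 30.4% of all genes tested. Itga6 and Itgb4 were called higher in all 3, as were 3.42% of the 13848 genes tested in each, and Itgav and Itgb5 lower, as were 3.59%. The median log2 fold change of the members was 0.17, 0.055 and 0.064, against 0.0024, -0.0090 and 0.0036 over all genes tested. The marker genes moved with the genotype too. The summed ductal epithelial markers stood at 4733 to 4756 CPM in untreated sgCtrL against 6355 to 6401 CPM in Sin3Bsg1, at 3182 to 3211 against 3422 to 3536 CPM without IFNγ, and at 3285 to 3830 against 4332 to 4569 CPM with IFNγ. Most of this sum came from the keratins Krt8, Krt18 and Krt19, so it says little of the other ductal markers. Of the 6 fibroblast markers, 3 to 5 were above the floor, and their sum, mostly Pdgfra, was 100.1 to 100.2 against 30.3 to 33.3 CPM in untreated cells, 261 to 268 against 223 to 234 CPM without IFNγ and 189 to 191 against 165 to 177 CPM with IFNγ. The platelet markers, of which Itga2b was the main one, summed to 2.99 to 3.36 CPM in untreated sgCtrL and 1.62 to 1.75 CPM in Sin3Bsg1, so they moved against Itgb3 there. Among the fibroblast markers, Dcn and Lum had at most 6 counts in any library. Pdgfrb reached 35.6 CPM and Acta2 164 counts, both in the IFNγ experiment. The part of these markers in the integrin results was not tested.

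**Figure D2:**
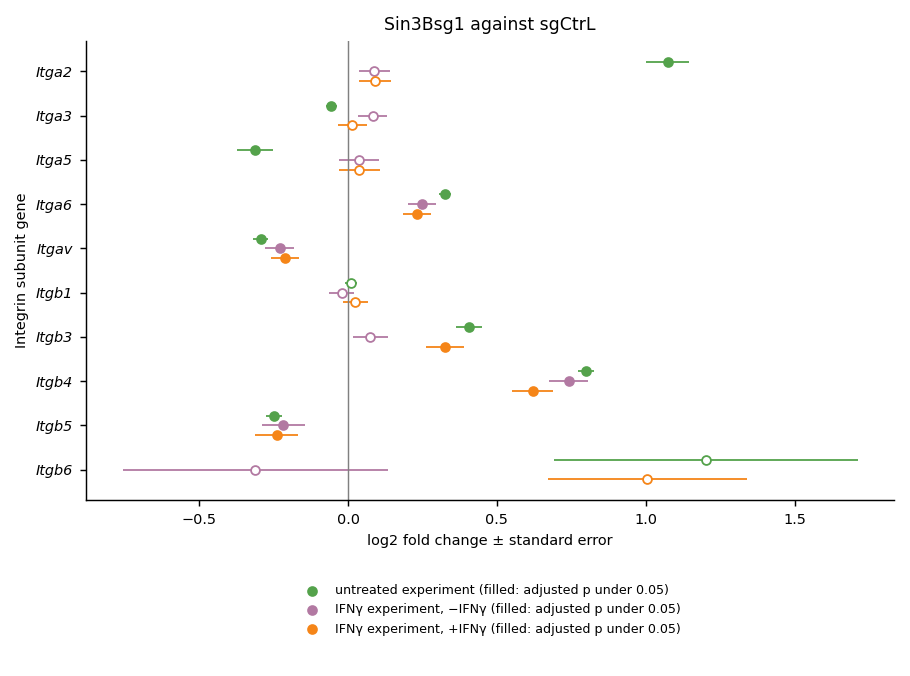
Log2 fold change of each member, Sin3Bsg1 against sgCtrL (horizontal axis, bars ± standard error), in the untreated experiment (green), without IFNγ (purple) and with IFNγ (orange). Filled points passed an adjusted p of 0.05. Itga6 and Itgb4 lie right of 0 and Itgav and Itgb5 left of 0 in all 3 comparisons, while Itga2 and Itga5 are filled in the untreated experiment only.

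A joined fit of both experiments tested whether the genotype effect of untreated cells differed from that without IFNγ in the second experiment. It did for 3 of the 10 members, 2 higher and 1 lower, where 6.71% of 15620 genes passed, 3.62% higher and 3.09% lower. Itga2 differed by 0.99 ± 0.093 on the log2 scale (adjusted p = 1.79e-06), Itgb3 by 0.33 ± 0.084 (adjusted p = 0.0205) and Itga5 by -0.35 ± 0.098 (adjusted p = 0.0383). Only the difference of Itga2 passed on leaving out each library in turn. For Itga6, Itgb4, Itgav and Itgb5 the differences were 0.076, 0.058, -0.063 and -0.031 and did not pass.

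With IFNγ 5 of the 10 members fell in each genotype, namely Itga2, Itga6, Itgb3, Itgb4 and Itgb5, as did 9.41% of the 14913 genes. In sgCtrL cells 6 members passed the test, 1 higher and 5 lower, where 30.2% of all genes passed, 15.7% higher and 14.5% lower. In Sin3Bsg1 cells 7 passed, 2 higher and 5 lower, where 28.4% of all genes did, 16.1% higher and 12.3% lower. The groups of 8 members did not overlap in either genotype, beside 41.5% and 45.4% of all genes. The medians of the members were -0.21 and -0.21 on the log2 scale, against -6.02e-04 and 0.0052 over all genes. The comparisons with IFNγ use the libraries without IFNγ that also enter the comparison of the genotypes, so values of the 2 kinds of comparison are not independent.

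The beta subunits gave the largest falls. Itgb3 fell from between 35.2 and 38.2 CPM to between 20.2 and 22.1 CPM in sgCtrL, a log2 fold change of -0.80 ± 0.062 (adjusted p = 5.63e-08), and from between 37.2 and 39.2 CPM to between 24.9 and 27.4 CPM in Sin3Bsg1, a log2 fold change of -0.55 ± 0.060 (adjusted p = 2.85e-06). Itgb4 fell by 0.60 ± 0.070 on the log2 scale in sgCtrL (adjusted p = 6.74e-06) and by 0.72 ± 0.066 in Sin3Bsg1 (adjusted p = 4.11e-07), which left 0.66 and 0.61 of its level. With IFNγ the Itgb4 level of Sin3Bsg1 cells, 41.1 to 46.7 CPM, came to lie beside that of sgCtrL cells without IFNγ, 40.4 to 44.5 CPM. Itgb5 fell by 0.45 ± 0.072 (adjusted p = 1.99e-04) and by 0.47 ± 0.072 (adjusted p = 1.22e-04). Without the library that stood apart, the fall of Itgb5 in sgCtrL was -0.58 on the log2 scale (adjusted p = 3.82e-09).

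Among the alpha subunits, Itga6 fell by 0.32 ± 0.047 in sgCtrL (adjusted p = 8.50e-05) and by 0.34 ± 0.047 in Sin3Bsg1 (adjusted p = 4.30e-05). Itga2 fell by 0.31 ± 0.052 (adjusted p = 3.55e-04), to 63.4, 70.5 and 70.2 CPM in sgCtrL, and by 0.30 ± 0.052 (adjusted p = 3.23e-04), to 74.0, 75.2 and 68.2 CPM in Sin3Bsg1. Itga3 rose in sgCtrL cells by 0.15 ± 0.048 (adjusted p = 0.0267), a call lost on leaving out any of 3 single libraries, among them the one that stood apart (0.089, adjusted p = 0.0924), and its log2 fold change of 0.083 in Sin3Bsg1 did not pass. Itga5, with a log2 fold change of -0.11 in each genotype, did not pass either, but without the library that stood apart it was -0.19 in sgCtrL and passed (adjusted p = 0.0330). Itgav did not pass in either genotype, with 95% intervals of -0.14 to 0.071 in sgCtrL and -0.12 to 0.089 in Sin3Bsg1. Itgb1 rose in Sin3Bsg1 cells by 0.15 ± 0.042 (adjusted p = 0.0126), a call lost on leaving out any of 3 single libraries of its own groups, and its log2 fold change of 0.11 ± 0.042 in sgCtrL did not pass (adjusted p = 0.0683).

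Itgb6 was the one member with a large rise. In Sin3Bsg1 cells it went from 8, 8 and 4 counts without IFNγ to 33, 36 and 29 counts with IFNγ, that is from between 0.172 and 0.348 CPM to between 1.25 and 1.45 CPM, and the groups were far apart. The log2 fold change was 2.28 ± 0.37 (adjusted p = 2.25e-04), or 4.86-fold, at a level that remained the lowest of the 10. In the IFNγ experiment the filter on low counts kept Itgb6 only through libraries with IFNγ, the state in which it was higher. This p-value is therefore not independent of that selection, although the call was kept with no filter on low counts. In sgCtrL cells Itgb6 went from 6, 8 and 7 counts to 13, 24 and 10 counts, a log2 fold change of 0.96 ± 0.40 that did not pass (adjusted p = 0.0823). Of all members, 2 had an unadjusted p under 0.05 for the interaction of genotype and IFNγ, as did 5.42% of all genes, Itgb6 with a difference of 1.32 ± 0.56 (adjusted p = 0.902) and Itgb3 with 0.25 ± 0.086 (adjusted p = 0.720). After adjustment 0 of the 10 passed with edgeR and 0 with DESeq2, where 0.114% of all genes did with edgeR, 0.0805% higher and 0.0335% lower. For Itgb4 the interaction was -0.12 ± 0.096. A difference of the IFNγ effect between the genotypes was thus not shown for any member.

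**Figure D3:**
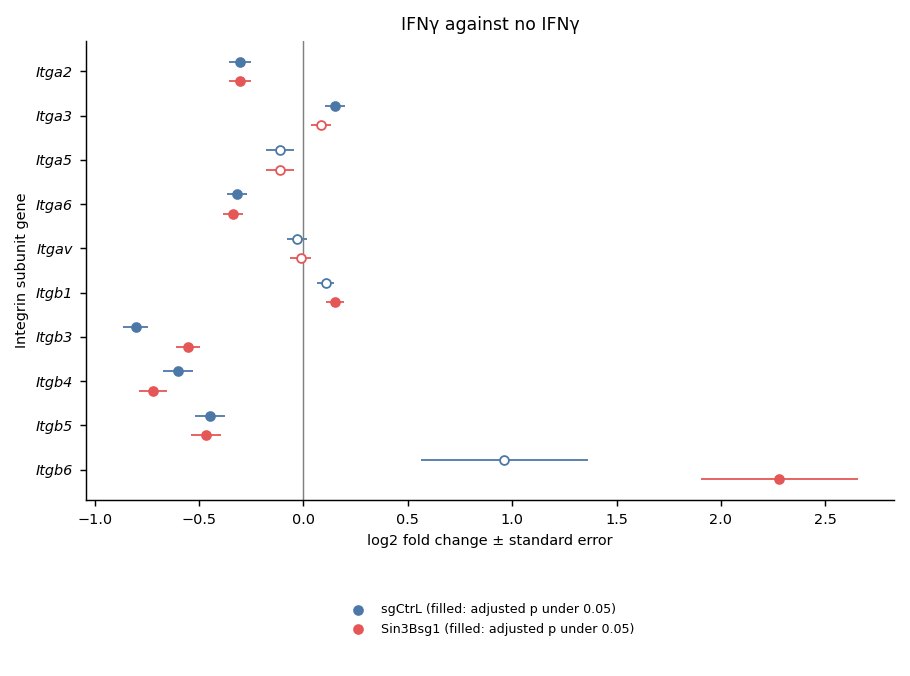
Log2 fold change of each member with IFNγ against without (horizontal axis, bars ± standard error) in sgCtrL (blue) and Sin3Bsg1 (red) cells, 3 libraries in each group. Filled points passed an adjusted p of 0.05. Itga2, Itga6, Itgb3, Itgb4 and Itgb5 are filled left of 0 in both genotypes, and Itgb6 in Sin3Bsg1 lies farthest right, at 2.28.

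With the deposited lengths, the 10 members made up most of the summed TPM of integrin subunits in these cells. Of the summed TPM of 18 alpha subunits the 5 alpha members held 97.7 to 98.9% in every group, and of that of 8 beta subunits the 5 beta members held 87.3 to 97.02%. Itgb4 made up 10.0% ± 0.030 (SD, n = 2) of beta subunit TPM in untreated sgCtrL cells and 16.7% ± 0.36 in Sin3Bsg1 cells. In the IFNγ experiment its share was 2.75% ± 0.15 and 4.90% ± 0.040 (n = 3) without IFNγ, and 1.83% ± 0.034 and 2.99% ± 0.16 with IFNγ. Itgb1 held 46.7 to 60.1% of beta subunit TPM, and Itga3 44.6 to 55.4% of alpha subunit TPM. The rest of the beta TPM was mostly Itgb7, best known as a partner of alpha-4 and alpha-E in leukocytes. Itgb7 rose with IFNγ from 28.0 ± 1.64 to 86.0 ± 9.91 CPM in sgCtrL (adjusted p = 2.05e-10) and from 14.7 ± 1.23 to 56.5 ± 2.001 CPM in Sin3Bsg1 (adjusted p = 3.60e-11). Its share of beta TPM went from 3.89% ± 0.27 to 11.98% ± 0.58 in sgCtrL and from 2.17% ± 0.19 to 8.43% ± 0.25 in Sin3Bsg1. Of the partners of Itgb7, Itga4 had 5 to 22 counts and Itgae 1 to 13 counts in a library of the IFNγ experiment. Itgam, a leukocyte alpha subunit, had at most 1 count in a library.

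**Figure D4:**
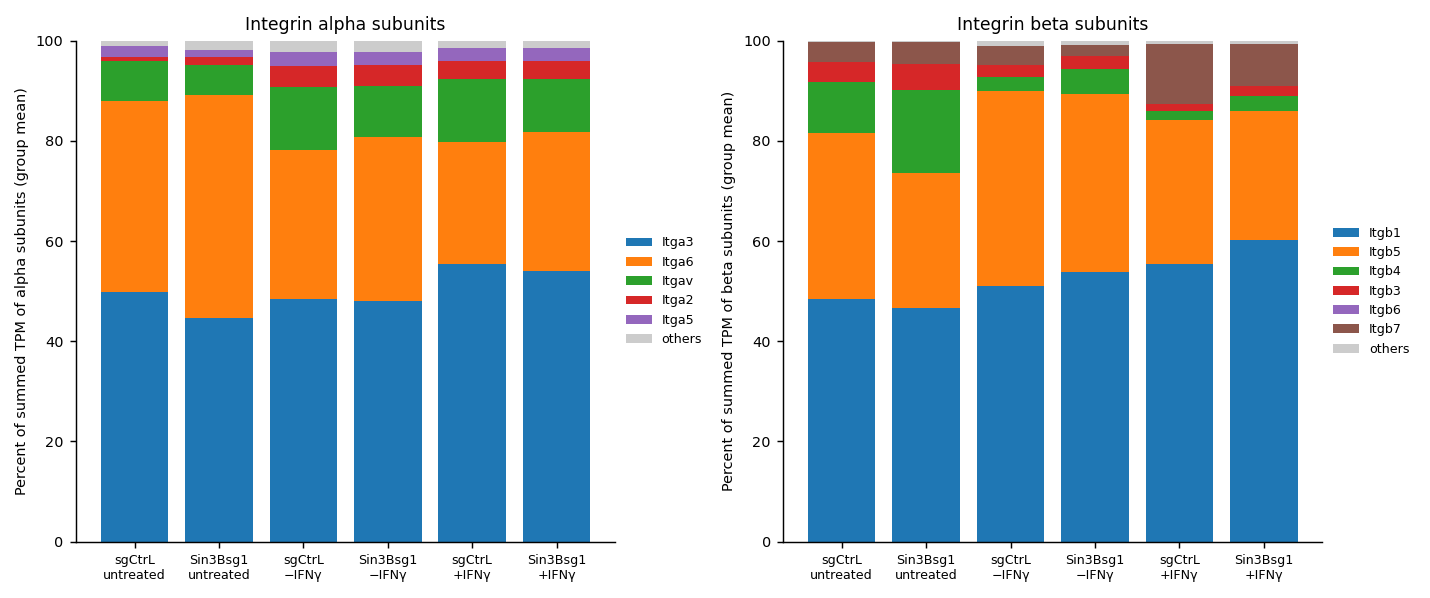
Share of each gene in the summed TPM of alpha subunits (left) and of beta subunits (right), in percent, as group means for the 6 groups. The share of Itgb4 is larger in each Sin3Bsg1 bar than in its sgCtrL bar, and Itgb7 widens with IFNγ to 11.98% in sgCtrL and 8.43% in Sin3Bsg1.

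Because an integrin needs both chains, the TPM ratio of partner genes was compared for 8 known pairs in the IFNγ experiment, with an exact permutation test, two-sided, that moved the genotypes within each treatment or the treatments within each genotype (400 arrangements, smallest p = 0.005), adjusted over the 8 pairs. Each difference tested was the mean of the differences within the treatments, or within the genotypes. The size of such a ratio depends on the gene lengths, while its difference between groups does not. With the deposited lengths the Itga6 to Itgb4 ratio was 10.9 to 12.1 in sgCtrL without IFNγ and 7.97 to 8.08 in Sin3Bsg1, and 12.8 to 14.6 against 10.1 to 10.8 with IFNγ. With merged exons the levels behind it without IFNγ were closer, at 24.9 against 5.91 CPM per kilobase in sgCtrL and 29.6 against 9.88 in Sin3Bsg1. The log2 ratio of this pair was lower in Sin3Bsg1 by 0.44 (difference -0.44, adjusted p = 0.0133 by the exact test), and in untreated cells the ratios were 5.99 and 5.94 in sgCtrL against 4.31 and 4.28 in Sin3Bsg1. The log2 ratio of Itga6 to Itgb1 differed by 0.24 and was larger in Sin3Bsg1 (adjusted p = 0.0133, exact test). The Itgav to Itgb3 ratio was 5.41 to 5.81 in sgCtrL against 4.37 to 4.70 in Sin3Bsg1 without IFNγ, and 9.31 to 10.4 against 6.56 to 6.82 with IFNγ, a difference of -0.42 on the log2 scale (adjusted p = 0.0133, exact test). For Itgav and Itgb5, both lower in Sin3Bsg1, the difference between the genotypes was 0.0033 (adjusted p = 0.975, exact test). The remaining pairs did not pass between the genotypes either. Their differences were 0.088 for Itga2 to Itgb1 and -0.57 for Itgav to Itgb6 (adjusted p = 0.2 each, exact test). For Itga3 and Itga5 against Itgb1 they were 0.047 and 0.035 (adjusted p = 0.367 and 0.429, exact test).

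With IFNγ, 7 of the 8 ratios differed, each with an adjusted p of 0.00571 by the exact test. Against Itgb1, the log2 ratio of Itga2 changed by -0.43, that of Itga5 by -0.24 and that of Itga6 by -0.46. The ratio of Itga6 to Itgb4 changed by 0.33, and those of Itgav to Itgb3, Itgb5 and Itgb6 by 0.66, 0.44 and -1.66. Itgb6 lay under 1 TPM in every group mean, and with 1 TPM added to both genes its change was -0.43 (adjusted p = 0.00571, exact test). The Itga3 to Itgb1 ratio, at -0.012, did not pass (adjusted p = 0.785). A ratio shows unequal change of the partners and does not tell which of them moved.

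**Figure D5:**
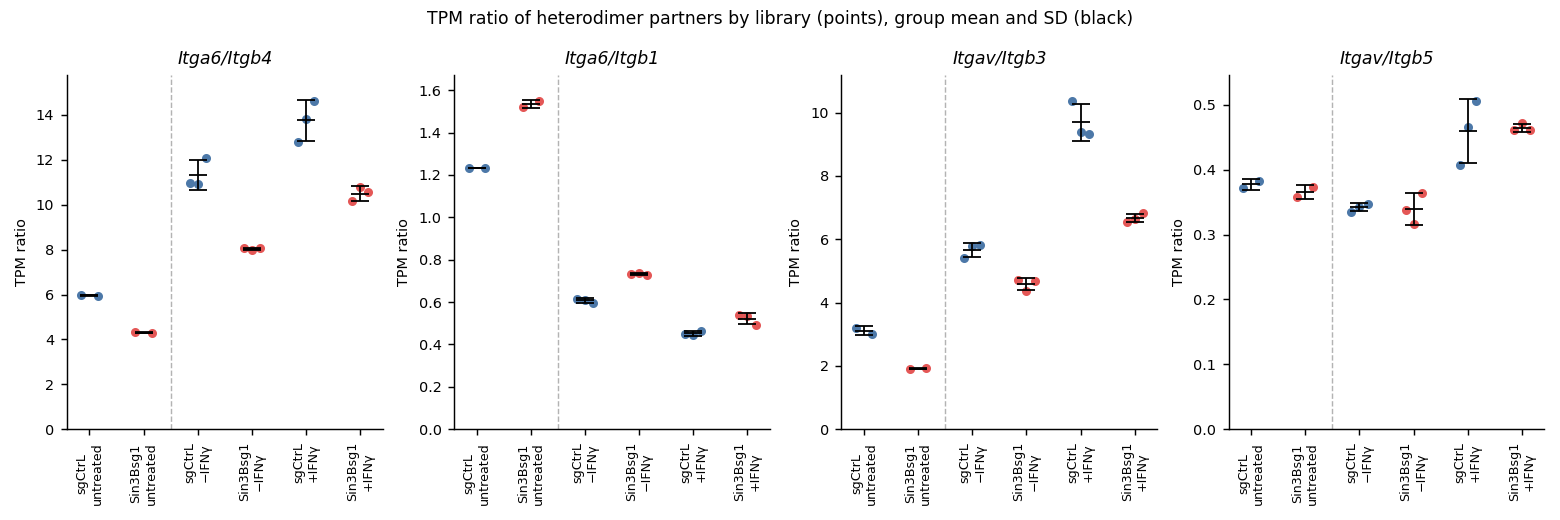
TPM ratio of partner genes (vertical axes, from 0) for Itga6/Itgb4, Itga6/Itgb1, Itgav/Itgb3 and Itgav/Itgb5 in the 6 groups, with libraries as points and mean ± SD in black. Itga6/Itgb4 and Itgav/Itgb3 lie lower in each Sin3Bsg1 group than in its sgCtrL group, and Itgav/Itgb5 overlaps between the genotypes.

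Genes that work with these integrins were read from 5 lists. Of the integrin ligands, 21 were tested, and 7 were higher and 9 lower in untreated Sin3Bsg1 cells, 8 higher and 3 lower without IFNγ, and 7 higher and 1 lower with IFNγ. These calls were 76.2%, 52.4% and 38.1% of the ligands tested, where 31.2%, 17.2% and 16.5% of all genes were called. Ccn2, a matricellular ligand, was higher in all 3 comparisons, by 1.13, 0.84 and 1.16 on the log2 scale. Col1a1, a ligand of alpha-2 beta-1, took opposite signs in the experiments, at -1.62 ± 0.11 in untreated cells and 1.37 ± 0.081 and 1.54 ± 0.088 in the other. With IFNγ 1 ligand rose and 13 fell in each genotype, which is 66.7% of those tested. Over all genes 30.2% were called in sgCtrL and 28.4% in Sin3Bsg1. Fn1, the ligand of alpha-5 beta-1, fell by 0.74 ± 0.072 and 0.53 ± 0.072, and Spp1 (osteopontin), a ligand of alpha-v integrins, by 0.96 ± 0.039 and 0.84 ± 0.039.

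Of 34 adaptor and focal adhesion genes tested in the untreated experiment, 8 were higher and 15 lower, and of 35 in the IFNγ experiment 7 were higher and 5 lower without IFNγ and 9 higher and 4 lower with IFNγ. Between the genotypes this was 67.6%, 34.3% and 37.1% of those tested, where 31.2%, 17.2% and 16.5% of all genes were called. Fermt1 (kindlin-1), which activates integrins through their beta tails in epithelia, was higher in Sin3Bsg1 by 1.39 ± 0.048, 1.15 ± 0.072 and 1.28 ± 0.076 (adjusted p = 2.95e-12, 2.17e-08 and 1.52e-08), from 30.9 to 81.1, 31.7 to 70.4 and 18.8 to 45.6 CPM. Tln2, a talin, was higher by 1.12, 1.02 and 0.94. These 2 adaptor genes fell with IFNγ in each genotype, Fermt1 by 0.75 and 0.63 and Tln2 by 0.56 and 0.64. Tns4 instead rose, at 0.38 to 0.46 in sgCtrL and 0.21 to 0.29 in Sin3Bsg1 on leaving out single libraries. In such fits Dab2 was lower in untreated Sin3Bsg1 cells, at -1.72 to -1.64. Parvb was lower in Sin3Bsg1 cells with IFNγ, at -0.76 to -0.62. In all, 4 adaptors rose and 7 fell with IFNγ in sgCtrL (7 called in all without sgCtrL without IFNγ, replicate 1), and 4 rose and 5 fell in Sin3Bsg1. These calls were 31.4% and 25.7% of the list, near the 30.2% and 28.4% of all genes.

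Of 11 hemidesmosome and tetraspanin partners tested, 5 were higher and 5 lower in untreated Sin3Bsg1 cells, and 1 and 3 were higher without and with IFNγ, with 0 lower. Between the genotypes this was 90.9%, 9.09% and 27.3% of those tested, where 31.2%, 17.2% and 16.5% of all genes were called. The count of 1 without IFNγ was not stable, at 0 to 4 on leaving out single libraries and 1 to 4 under the other settings, and the 3 with IFNγ became 5 without the library that stood apart. Krt18, a keratin of simple epithelia, was among the higher ones each time, by 0.36, 0.17 and 0.39, although the call without IFNγ was lost on leaving out any of the 6 libraries compared (adjusted p up to 0.119), and Cd9, a tetraspanin that associates with integrins, in the untreated comparison (0.35) and with IFNγ (0.28). With IFNγ 2 of these partners rose and 3 fell in sgCtrL, and 3 rose and 1 fell in Sin3Bsg1. That was 45.5% and 36.4% of those tested, where 30.2% and 28.4% of all genes were called. Among the called partners, Krt18 rose by 0.72 and 0.94, while the integrin genes Itga6 and Itgb4 fell. Plec (plectin), which links beta-4 to keratin, fell in sgCtrL by 0.33 ± 0.089 (adjusted p = 0.0112). This call was lost without sgCtrL without IFNγ, replicate 1 (adjusted p = 0.0508), when the calls of this list in sgCtrL numbered 3 in place of 5. Without the library that stood apart the log2 fold change of Plec was -0.21. Of 11 genes of latent TGF-beta and the alpha-v beta-6 axis, 1 was higher and 8 lower in untreated Sin3Bsg1 cells, 2 and 3 without IFNγ, and 2 and 2 with IFNγ. These calls were 81.8%, 45.5% and 36.4% of this list, beside the same shares of all genes. Ltbp2, a latent TGF-beta binding protein, reversed between the experiments, at -0.99 ± 0.037 in untreated cells and 0.96 ± 0.056 and 0.81 ± 0.056 in the other. With IFNγ 0 of the 11 TGF-beta axis genes rose, and 7 fell in sgCtrL and 8 in Sin3Bsg1, which is 63.6% and 72.7% of this list. Among them, Tgfb2 fell by 1.07 and 1.12 and Tgfbi, a secreted matrix protein that TGF-beta induces, by 1.37 and 1.54.

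Of the other integrin subunits, 16 were in the tables, 9 were tested in the untreated experiment and 10 in the other. Itga7, a laminin receptor subunit best known from muscle, was higher in Sin3Bsg1 in all 3 comparisons, by 0.79, 0.86 and 0.61, and fell with IFNγ by 1.02 and 1.27. Itga1, a collagen receptor subunit, was higher in untreated Sin3Bsg1 cells by 1.87 ± 0.084 (adjusted p = 7.66e-11), at 35.6 ± 2.09 against 9.72 ± 0.636 CPM (n = 2). In the IFNγ experiment Itga1 stood at 12.3 to 16.9 CPM over all libraries and was not called between the genotypes. Its share of alpha subunit TPM was 0.430% in sgCtrL and 0.380% in Sin3Bsg1 without IFNγ, and 0.494% and 0.512% with IFNγ. Itga8, a subunit that binds RGD ligands, was lower in Sin3Bsg1, with log2 fold changes of -1.05 ± 0.26, -1.33 ± 0.13 and -0.90 ± 0.15 in the 3 comparisons (adjusted p = 0.00595, 2.56e-06 and 6.05e-04), and stood at 4.76 ± 0.586 against 11.96 ± 0.324 CPM (n = 3) without IFNγ. In the untreated experiment Itga8 had only 35 to 96 counts in a library. With IFNγ Itga8 fell in sgCtrL cells, at -1.68 to -1.55 on leaving out single libraries. Itgb7 was lower without and with IFNγ, at -0.93 ± 0.089 and -0.60 ± 0.076, and higher in untreated cells, at 0.21 ± 0.070 (adjusted p = 0.0335), a call lost without sgCtrL replicate 1 (0.12, adjusted p = 0.342) or Sin3Bsg1 replicate 1 (adjusted p = 0.0602). In untreated cells 3 of the other subunits were higher and 3 lower, with 1 higher and 2 lower in each comparison of the IFNγ experiment. With IFNγ 1 rose and 3 fell in sgCtrL, and 2 rose and 3 fell in Sin3Bsg1. The calls between the genotypes were 66.7%, 30% and 30% of the other subunits tested, and those with IFNγ 40% and 50%. Over all genes the shares called were those given above for each comparison, and no list was tested as a set.

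For the 3 members whose group means ranged most, the genes of most similar pattern were sought over the 6 group means of log2 CPM, centred within each experiment, among 10104 genes with a mean of at least 5 CPM. For Itgb6, with a range of 2.03 on the log2 scale, they were Ifi27l2b, Ptprr and Gcnt1, with root mean square differences of 0.17, 0.19 and 0.27. For Itgb4, with a range of 1.34, they were Celsr1, Nptx1 and Ndrg2 (0.072, 0.078 and 0.090), and for Itgb3, with a range of 0.88, Glul, Gm46620 and Ern1 (0.046, 0.053 and 0.058). With 6 points and many genes searched, such closeness is a description of these groups.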

How the data were processed

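Per the labels, fastp, HISAT2, StringTie and DESeq2 were applied with mm39, whereas the paper's methods name mm9, HISAT2 and featureCounts on uniquely mapped reads. The authors deposited estimated counts per gene, not normalized, in 1 table for each experiment, beside group means that were not used here. Versions and the strand setting are not given in the sources used here. Control columns are named for lacZ and were read as sgCtrL, the only control guide in the labels. Loci without an Ensembl identifier (324 in the untreated experiment, 0.615 to 0.677% of counts) were left out.

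Counts were rounded and tested with edgeR 4.0.16 in R 4.3.3 (TMM, filterByExpr, glmQLFit and glmQLFTest, two-sided), with Benjamini-Hochberg adjustment over all genes tested and a threshold of 0.05. The untreated experiment was fitted alone, the 12 libraries of the experiment with IFNγ together, and both tables jointly only for the difference between the experiments. The standard error of a log2 fold change was its size over the root of the F statistic. CPM use TMM-scaled totals, and TPM the deposited lengths. Totals of 18128055 to 32311721 counts set the counting error, and the biological coefficient of variation was 2.84% in the untreated fit and 6.78% in the other. Intervals and floors cover only the spread or counting error of these libraries. The 10 members, the 5 gene lists and the markers were chosen with earlier results of these data known. All members are named, and from each list at most 3 genes per comparison, those of largest change past the threshold at a mean of at least 5 CPM, of which 1 is not reported here. The genes of similar pattern were the 3 closest to each of the 3 members that ranged most. Fits were tested on simulated data. Alternatives were DESeq2 1.42.0, RLE size factors, other filters on low counts, a block for the replicate number, only the groups compared, a pseudocount of 1 TPM in the ratios and leaving out each library.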

Additional observations from a re-analysis of the deposited data

Results flagged for a closer look

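The genotype effect of 3 members differed between the untreated experiment and the cells without IFNγ of the other experiment, by a test of the difference in a joined fit with edgeR. The log2 fold change of Itga2 was larger in untreated cells by 0.99 (adjusted p = 1.79e-06), that of Itgb3 by 0.33 (adjusted p = 0.0205), and that of Itga5 was lower, with a difference of -0.35 (adjusted p = 0.0383). On leaving out each library in turn, the adjusted p of Itga2 stayed under 0.05 and those of Itgb3 and Itga5 did not. The experiments also differed in depth and in the control levels of these genes, and these cannot be told apart.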

How the results depend on the processing

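For the members' log2 fold changes, leaving out each library in turn gave 716 values, of which 674 kept direction and side of the threshold, 33 lost a call, 2 gained one and 7 changed sign. The other settings gave 346 values, of which 338 kept both, 7 lost a call, 1 gained one and 0 changed sign. These 7 sign changes were in log2 fold changes near 0 that did not pass the test. Over the leave-one-out fits Itga5 without IFNγ ranged from -0.016 to 0.070 between the genotypes and Itgb1 from -0.040 to 0.0010, Itga3 with IFNγ from -0.020 to 0.079, and the IFNγ effect on Itgav from -0.071 to 0.0027 in sgCtrL and from -0.063 to 0.019 in Sin3Bsg1. Of the log2 ratios, Itgav to Itgb5 ranged from -0.039 to 0.039 between the genotypes, Itgav to Itgb6 from -0.74 to -0.44, and Itga3 to Itgb1 with IFNγ from -0.031 to 0.0073. With 1 TPM added, the Itgav to Itgb6 difference between the genotypes was -0.34 (adjusted p = 0.01 by the exact permutation test), where it did not pass without. The cause of these changes was not tested. The difference between the experiments was called for 1 to 3 members over the leave-one-out fits, and for 2 with no filter on low counts.

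Itgb5 between the genotypes without IFNγ was also lost with RLE size factors (adjusted p = 0.0642, edgeR) and with at least 10 counts in every library (adjusted p = 0.0518), a filter that leaves Itgb6 out of the IFNγ experiment. With only the groups compared in the fit, Itgb5 with IFNγ (adjusted p = 0.123) and the rise of Itga3 in sgCtrL (adjusted p = 0.0627) were lost, and Itga3 between the genotypes without IFNγ was gained (adjusted p = 0.0194). Without a filter the rise of Itgb1 in Sin3Bsg1 was lost (adjusted p = 0.0512). Of the list counts, ligands between the genotypes with IFNγ numbered 4 in place of 8 with only the groups compared, and hemidesmosome and tetraspanin partners for the interaction numbered 1 without a filter and 2 without sgCtrL with IFNγ, replicate 1, in place of 0. Over all genes, fits of only the groups compared called 3995 genes between the genotypes without IFNγ, against 2567, and 1500 with IFNγ, against 2463. The interaction called 17 genes with edgeR, 32 with DESeq2 and 115 without a filter.

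Whether the replicate numbers pair the libraries is not stated in the sources used here. The correlations of same-numbered libraries' deviations were 0.0129 in the untreated experiment and -0.029 to 0.119 in the other. In the untreated experiment differently numbered libraries necessarily gave the same size with the opposite sign. Between the genotypes with IFNγ, same-numbered libraries gave 0.119, 0.095 and -0.0045, and differently numbered ones -0.134 to 0.053. These values do not settle whether same-numbered libraries share an effect. With the replicate block, 8, 4 and 5 members were called between the genotypes, 6 and 7 with IFNγ and 0 for the interaction, as without it, and 2 in place of 3 for the difference between the experiments. In that fit the adjusted p of Itga5 was 0.0606.

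Depth limits Itgb6, at 4 to 36 counts, and 2 or 3 libraries a group limit the small changes of Itga3, Itgb1 and Itgb5.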
